A study of Mus musculus with 8 samples.

Results

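The splicing factor genes described here are a part of the core protein genes of the pre-mRNA splicing machinery and of its RNA-binding regulators. They were taken by symbol from the deposited expression table of mouse alveolar macrophages: every gene whose symbol begins with Snrp, Sf3a, Sf3b, Srsf or Hnrnp, plus U2af1 and U2af2. The rule found 52 genes of 12701, with no pseudogene symbol to remove. It leaves out other core and regulator genes, such as Prpf8 and Tra2b, which belong to a separate list read further below. There were 20 Hnrnp genes, 11 Snrp genes, 10 Srsf genes, 6 Sf3b genes, 3 Sf3a genes and the 2 U2AF genes.

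The study profiled RNA of alveolar macrophages, the tissue-resident macrophages of the lung airspaces, sorted by flow cytometry from C57BL/6 mice. The 3 groups were naive mice without tumors (3 libraries), tumor-bearing mice labelled d15 (2 libraries) and tumor-bearing mice labelled d35 (3 libraries). Tumors came from KP cells, a mouse lung adenocarcinoma line, given as KP or KP-GFP cells through the tail vein. Each library came from 20000 sorted cells and 1 ng of RNA. No sex, age or gene alteration of the mice is labelled. The tumors are transplanted lung foci and not tumors arising in place, and the growth protocol's period before harvest ends earlier than the label d35. The labels do not say whether libraries came from separate mice, and p-values therefore cover only library-to-library spread, which may be technical. The d15 columns carry other numbers than the d15 titles, and those libraries are called replicates A and B.

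Splicing begins when the U1 small nuclear ribonucleoprotein (snRNP) pairs with the 5′ splice site and the U2AF dimer binds the polypyrimidine tract and the AG of the 3′ splice site. U2 snRNP, which carries the SF3A and SF3B complexes, then engages the branch point. SR proteins, encoded by the Srsf genes, mostly promote the use of nearby sites from exonic enhancers, and hnRNP proteins bind nascent RNA and often repress sites. Many of these genes limit their own mature mRNA through alternatively included "poison" exons, and the deposited values sum all isoforms of a gene.

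The libraries held 27465745 to 39572173 recovered reads. All 12 listed alveolar macrophage markers were found, at a summed level of 25202 to 32710 in naive libraries, 34257 to 38965 at d15 and 35305 to 49362 at d35, in scaled CPM (counts divided by the normalized library size, the deposited unit). Every tumor-bearing library thus had a higher sum of these markers than every naive library. The single markers did not all rise: 9 of the 12 were higher than naive at d15 and 6 at d35. At a limma adjusted p under 0.05, 2 rose at d15, and 3 rose and 1 fell at d35. Marker lists of other cells also differed between groups. The 4 B cell markers summed to 10.4 to 15.5 in naive libraries against 5.22 to 5.64 at d15 and 3.78 to 6.93 at d35. The 6 endothelial markers summed to 255 to 317 against 173 to 199 and 156 to 203. The 7 monocyte and interstitial macrophage markers summed to 22.1 to 27.4, 26.5 to 34.3 and 111 to 381. The 5 proliferation markers summed to 311 to 327, 319 to 361 and 204 to 276, and the 3 fibroblast markers to 6.67 to 19.7, 2.68 to 5.04 and 5.08 to 9.17. The 5 epithelial and tumor markers summed to 199 to 276, 247 in both d15 libraries and 124 to 241. Single markers of this list moved in opposite directions. At d35 against naive 2 of the 5 rose and 1 fell (limma adjusted p under 0.05), with log2 differences from -0.79 to 3.63. Neutrophil markers summed to 2.12 to 3.14, 3.07 to 4.06 and 2.77 to 18.6, and T and NK cell markers to 1.11 to 2.67 over all libraries. The part of these cells in the results below was not tested, and in bulk samples fewer cells of a type and less RNA per cell cannot be told apart.

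For 45 of the 52 genes RefSeq gave a promoter window in GRCm38.p6, 60 windows in all. The 250 bases before the RefSeq start held the 7-letter motif CCGGAAG, on either strand, in 19 of 60 windows (31.7%), against 6.91% of the windows of all genes (32851 windows). CCGGAAG is the core recognised by ETS-family factors, and these matches are letters in a window and not shown binding sites. GGGCGG, on either strand, was in 71.7% of the member windows against 32.7%, and TATAAA in 8.33% against 12.4%. CCAAT was in 46.7% against 33.8%. The palindromic NRF1 motif, with 1 free base and named here without its letters, was in 20% against 3.74%. CACGTG was in 8.33% against 6.02%. All these background shares are over the windows of 27025 genes, some of them absent from the expression table. Shares over expressed genes alone were not computed, so the motifs cannot be called particular to the members. Windows of 3 genes whose values changed below are shown because they carry the CCGGAAG motif, which stands in capitals on whichever strand it was found. They are written 5′ to 3′ on the gene's strand and trimmed so that no base lies within the annotated gene. The Srsf5 window is chr12:80945249-80945498 (plus strand), the Srsf7 window is chr17:80207308-80207555 (minus strand) and the Sf3b6 window is chr12:4817358-4817543 (plus strand).
Srsf5: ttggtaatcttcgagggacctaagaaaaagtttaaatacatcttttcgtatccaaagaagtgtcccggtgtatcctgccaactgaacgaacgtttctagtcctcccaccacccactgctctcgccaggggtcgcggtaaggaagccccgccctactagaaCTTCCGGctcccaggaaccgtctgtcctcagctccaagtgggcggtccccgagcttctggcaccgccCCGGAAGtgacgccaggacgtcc
Srsf7: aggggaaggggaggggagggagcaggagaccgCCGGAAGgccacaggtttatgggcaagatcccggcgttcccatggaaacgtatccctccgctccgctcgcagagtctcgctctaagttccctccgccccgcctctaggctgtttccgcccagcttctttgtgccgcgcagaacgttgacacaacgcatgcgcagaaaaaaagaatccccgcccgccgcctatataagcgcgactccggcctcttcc
Sf3b6: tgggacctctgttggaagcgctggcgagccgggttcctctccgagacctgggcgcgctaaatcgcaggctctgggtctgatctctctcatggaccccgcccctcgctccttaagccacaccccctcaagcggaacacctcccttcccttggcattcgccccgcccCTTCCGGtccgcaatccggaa
In Srsf5 the motif lay 90 and 23 bases before the RefSeq start, in Srsf7 218 bases and in Sf3b6 85 bases. Of these 3 genes, Srsf5 fell and Srsf7 rose at d15, and Sf3b6 rose at d35, so these 3 did not share a direction. The direction of the other members with the motif was not examined.

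Together the 52 genes held 6814, 7213 and 7304 scaled CPM in the naive libraries, 6752 and 6404 at d15, and 6927, 7037 and 7165 at d35. Both d15 sums lay below the naive sums, and the d35 sums fell inside the naive range. Levels between genes were compared as scaled CPM per kilobase of the median annotated transcript, averaged over the 8 libraries. The highest were Hnrnpa2b1 at 350 per kb, Hnrnpk at 311, Srsf5 at 221 and Snrpb at 206. The lowest were Snrpf at 1.83, Hnrnpul2 at 2.14, Snrpd2 at 5.81 and Hnrnpa0 at 5.97. The family medians per kb were 78 for Srsf, 44.2 for Hnrnp, 43.4 for Sf3b, 22.8 for Sf3a, 22.4 for U2AF and 19.5 for Snrp genes. The deposited levels differed within one ring: Snrpb and Snrpf both encode subunits of the 7-member Sm ring around spliceosomal small nuclear RNAs. Snrpf has 1 near-identical copy, of the kind described next, and Snrpb has 0, so the low Snrpf level is uncertain.

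**Figure D1:**
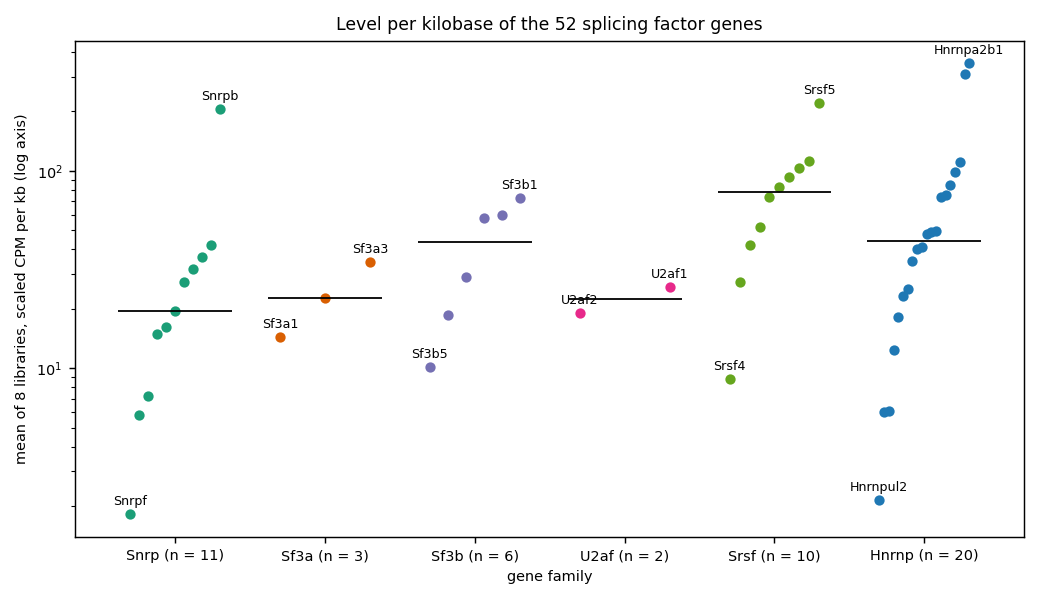
Level of each of the 52 splicing factor genes by family, as scaled CPM per kb of median transcript on a log axis, each point the mean over the 8 libraries and each line a family median. Hnrnpa2b1 (350) and Hnrnpk (311) sit at the top and Snrpf (1.83) at the bottom.

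Near-identical copies bear on how well some levels are known. Of the 52 genes, 21 had at least 1 other annotated gene with at least 95% identity over at least 50% of the coding sequence. Hnrnpa3 had 24 such copies, Hnrnpa1 9, Hnrnpf 6, and Snrpg and Srsf3 4 each. Genes with a copy had a median of 25.8 scaled CPM per kb and those without had 49.0. How the counting treated reads that fit several genes is not given in the sources used here, so levels of the genes with copies are uncertain, and the part of copies in this difference was not tested. Among the genes called below, Srsf5 and Snrpe each had 1 such copy.

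The first comparison asked which splicing factor genes differed between alveolar macrophages of mice labelled d15 and naive mice. With limma on log2(value + 1) and Benjamini-Hochberg adjustment over 11273 genes, 3 of the 52 genes passed an adjusted p of 0.05. Srsf7 rose, and Srsf5 and Hnrnpll fell. That is 5.77% of the genes, against 4.37% of all genes tested (2.37% up and 2.00% down), a share near the background. The other 49 genes did not pass. Of all 52 genes, those that passed included, 18 had an unadjusted p under 0.05 (34.6%, against 26.2% of all genes tested). The median log2 difference was -0.05 over the 52 genes and 0.01 over all genes, and the single differences ran from -0.64 to 0.41. For 41 of the 52 genes the 95% interval of the difference lay within 1.5-fold either way, against 64.0% of all genes tested. Both d15 libraries lay above all naive libraries in 13 of the 52 genes and below them in 15, against 25.9% and 22.3% of all genes (48.2% in either direction).

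The second comparison set d35 against naive. Here 4 of the 52 genes passed: Sf3b5, Sf3b6 and Snrpe rose, and Srsf5 fell. That is 7.69%, against 16.2% of all genes tested (9.86% up and 6.32% down), a smaller share than the background. The median log2 difference was 0.06, against 0.00 over all genes (-0.0022), and the 95% interval lay within 1.5-fold for 46 of the 52 genes (68.7% of all genes). The d35 libraries lay wholly above the naive ones in 12 genes and wholly below in 3, against 20.7% and 15.9% of all genes (36.7% either way). The third comparison set d35 against d15, which shares libraries with both others. Hnrnpll and Sf3a1 were higher at d35 (3.85%, against 7.39% of all genes, 4.59% up and 2.80% down), and 9 of the 52 genes had an unadjusted p under 0.05 (17.3%, against 22.3% of all genes). The d35 libraries lay wholly above d15 in 19 genes and wholly below in 7, against 19.0% and 19.5% (38.4% either way), and the interval lay within 1.5-fold for 47 (67.8% of all genes). Scaling to plain library totals in place of the deposited normalization changed the split between higher and lower. With it, the genes called were 4 lower at d15, 5 lower at d35, and 1 higher and 1 lower from d15 to d35, with no share of all genes given here. It moved the median of all genes at d35 from 0.00 to -0.11. With quantile normalization the 3 genes called at d15 were all lower, and 3.79% of all genes were called.

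**Figure D2:**
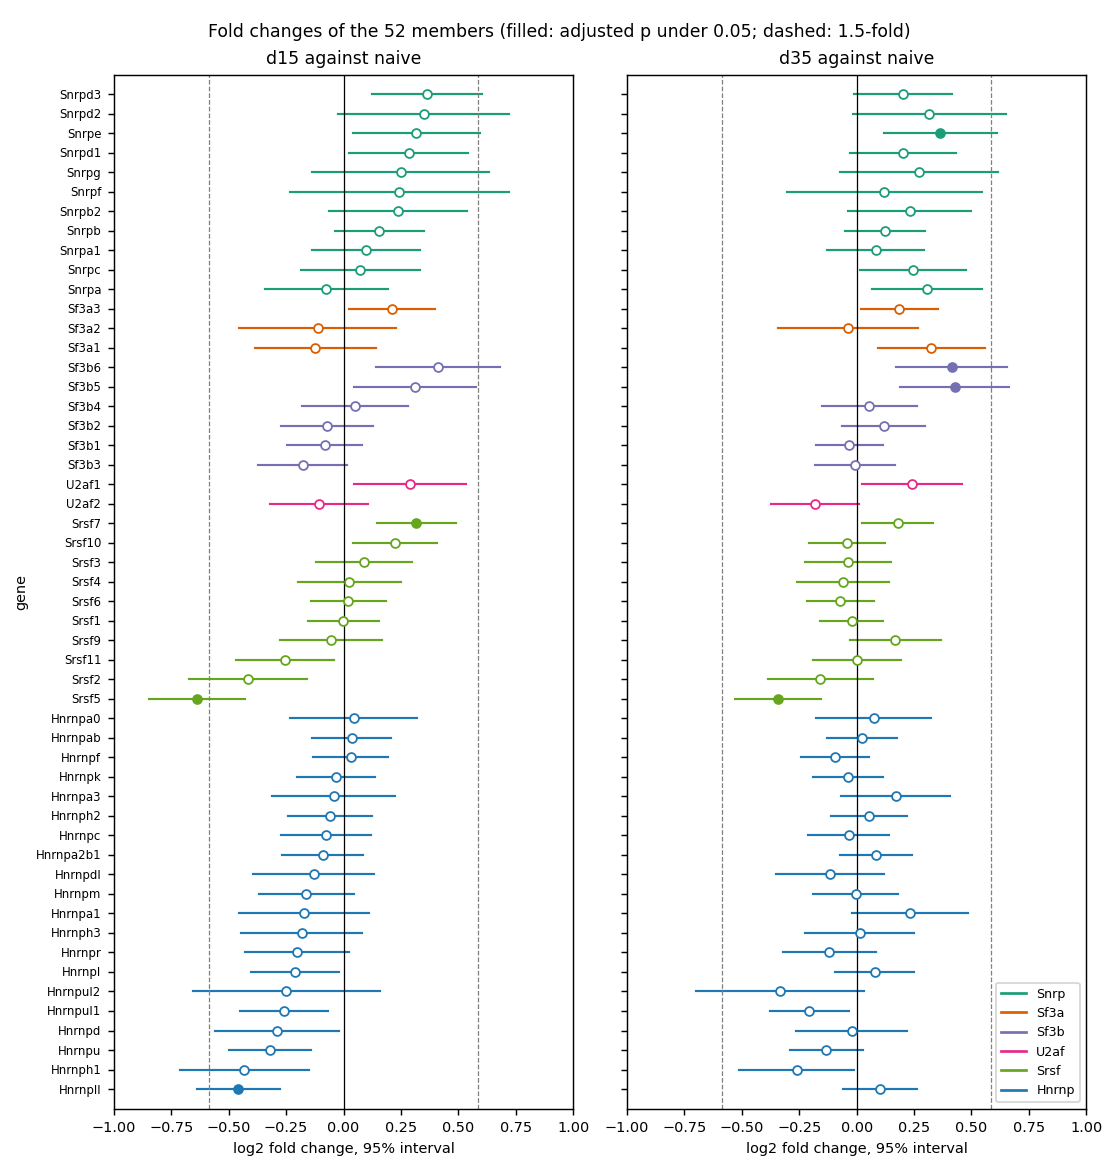
Log2 difference of each of the 52 genes with its 95% interval for d15 against naive and d35 against naive, grouped by family, with filled points for genes that passed. The dashed lines mark 1.5-fold, and 41 and 46 of the 52 intervals lie between them.

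Among the SR protein genes, Srsf5 fell at both times and Srsf7 rose at d15. Srsf5 encodes an SR protein of the SRp40 type that promotes exon inclusion. The gene (ENSMUSG00000021134.17) lies on chromosome 12 at 80945504 to 80950507, plus strand, in GRCm38. It read 349, 429 and 416 scaled CPM in naive libraries, 242 and 268 at d15, and 316, 317 and 306 at d35. Every tumor-bearing library was below every naive library, and both d15 libraries were below the 3 d35 libraries. The means were 398 ± 43.2 (SD, n = 3), 255 ± 18.4 (SD, n = 2) and 313 ± 5.84 (SD, n = 3). The log2 difference from naive was -0.64 at d15 (SE 0.10, limma adjusted p = 0.00852) and -0.34 at d35 (SE 0.09, adjusted p = 0.0241). From d15 to d35 it was 0.30 (adjusted p = 0.0897), which did not pass. The d15 call was lost without either d15 library (-0.56 and -0.71, adjusted p = 0.075 and 0.0841). The d35 call was lost without d35 replicate 1 or 3 and without naive replicate 2 or 3.

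Srsf7 encodes an SR protein with a zinc knuckle that also takes part in mRNA export. It lies on chromosome 17 at 80200080 to 80207307, minus strand (ENSMUSG00000024097.11). Its values were 117, 124 and 128 in naive libraries, 159 and 148 at d15, and 135, 135 and 148 at d35, so all tumor-bearing libraries were above all naive ones. The means were 123 ± 5.45 (SD, n = 3), 154 ± 7.37 (SD, n = 2) and 140 ± 7.31 (SD, n = 3). At d15 it rose by 0.32 on the log2 scale (SE 0.08, limma adjusted p = 0.0481), and at d35 the difference of 0.18 did not pass (adjusted p = 0.103). The d15 call sat at the threshold and was lost in 11 of 18 alternatives, among them edgeR (adjusted p = 0.0541), plain library totals and a correction for transcript length. Srsf5 and Srsf7 thus moved in opposite directions at d15 within one family.

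The other 8 Srsf genes did not pass at d15 or d35, and their values are given after they were seen. Srsf1, the founding SR protein, was the flattest of the 52 genes, at 154 ± 4.46 in naive, 154 ± 6.73 at d15 and 152 ± 3.17 at d35. Its log2 standard deviation over the 8 libraries was 0.04, against 0.28 for Srsf5, the most variable member, and a median of 0.14 over the members. Srsf2, known for its mutation in myeloid neoplasms, averaged 201 ± 19.4, 151 ± 29.1 and 179 ± 6.08 (d15 difference -0.41, adjusted p = 0.0642). Srsf10, a regulator activated on dephosphorylation after heat shock, averaged 80.8 ± 3.73, 94.4 ± 0.0577 and 78.5 ± 5.50, with both d15 libraries above all others and an adjusted p of 0.122 (d15 against naive).

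Srsf3, Srsf4 and Srsf6 had d15 differences of 0.09, 0.02 and 0.02 and d35 differences of -0.04, -0.06 and -0.07. Srsf11 averaged 126 ± 13.1, 105 ± 2.00 and 126 ± 8.07, with both d15 libraries below all others (adjusted p = 0.128 against naive and 0.142 against d35). Srsf9 averaged 116 ± 9.76, 111 ± 5.88 and 130 ± 12.9.

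The heat-shock and immediate-early list moved between libraries and not only between groups. Its 21 genes summed to 5510, 10028 and 9491 in the naive libraries, 10119 and 11302 at d15, and 4376, 6475 and 9336 at d35. Naive replicate 1, with the lowest naive sum, also had the lowest naive Srsf5 and Srsf7. The sum of all 10 Srsf genes was lowest there too (1467, against 1665 and 1672). Between groups, d15 had the highest list sums, the lowest mean Srsf5 and the highest mean Srsf7. Of the 20 genes tested in this list, 4 rose at d15 (20.0%, against 4.37% of all genes tested) and 16 did not pass. Hspa8, the constitutive chaperone of this list, was chosen after its values were seen. It averaged 693 ± 205 in naive libraries and 1672 ± 163 at d15 (log2 difference 1.30, limma adjusted p = 0.00852). Its part in the Srsf values was not tested.

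**Figure D3:**
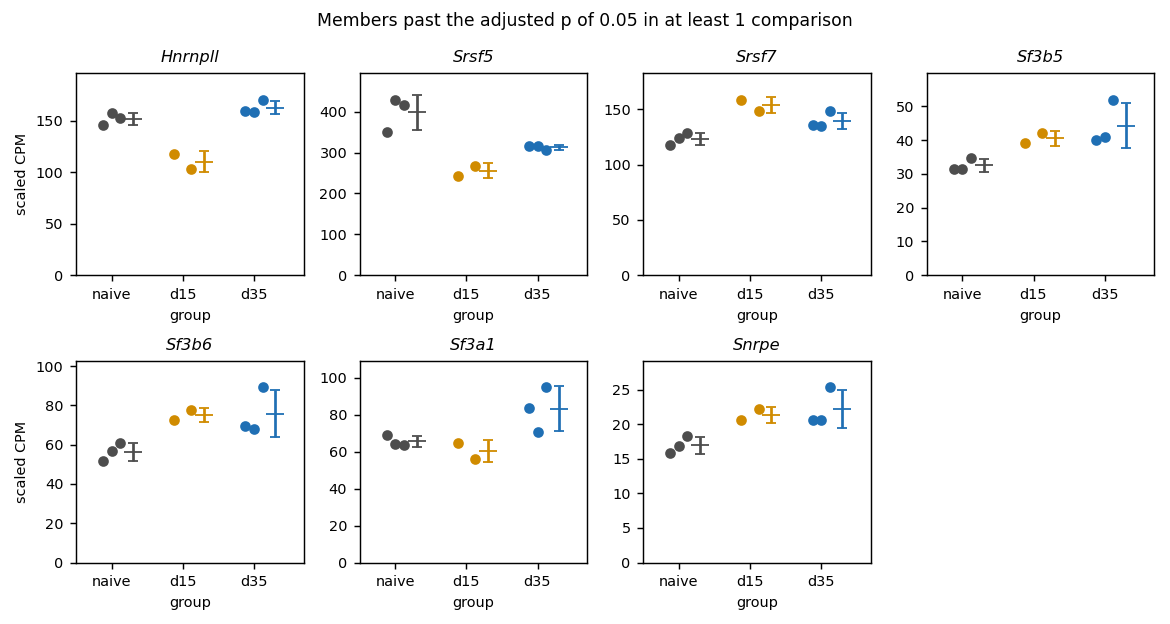
Scaled CPM of the 7 genes that passed in any comparison, 1 point a library with the group mean and SD beside them, for naive, d15 and d35. Srsf5 lies lowest at d15 and Hnrnpll dips at d15 (103 and 118) and lies between 159 and 171 at d35.

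The Hnrnp genes leaned lower at d15. Of the 20 genes, 17 had a negative log2 difference from naive, with a median of -0.17 against 0.01 over all genes. In 9 genes both d15 libraries were below all naive libraries, and 22.3% of all genes tested showed that. The negative side held 17 to 20 of the 20 genes under plain totals, quantile normalization, the length correction, edgeR and DESeq2. At d35 the median was -0.01, with 9 positive and 11 negative, except that plain library totals gave 18 negative. The d35 libraries lay wholly above naive in 3 genes and wholly below in 1, against 20.7% and 15.9% of all genes. Summed, the 20 genes held 3833, 3954 and 4064 scaled CPM in naive, 3680 and 3405 at d15, and 3819, 3899 and 3857 at d35.

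One Hnrnp gene passed at d15. Hnrnpll encodes hnRNP L-like, known for controlling the exon choice of CD45 in lymphocytes and B cell to plasma cell splicing. It lies on chromosome 17 at 80029487 to 80062334, minus strand (ENSMUSG00000024095.15), 138 kb from Srsf7, which moved the other way at d15. It read 146, 158 and 152 in naive, 118 and 103 at d15, and 160, 159 and 171 at d35. Both d15 libraries were below all others, and the 3 d35 libraries were above the 3 naive ones by little. The means were 152 ± 5.76 (SD, n = 3), 110 ± 10.6 (SD, n = 2) and 163 ± 6.72 (SD, n = 3). It fell by 0.46 on the log2 scale at d15 (SE 0.08, limma adjusted p = 0.0191), and from d15 to d35 it rose by 0.56 (SE 0.08, adjusted p = 0.00279). The d35 difference from naive, 0.10, did not pass (adjusted p = 0.372). The d15 call was lost without d15 replicate B, naive replicate 2 or naive replicate 3, and the rise from d15 to d35 was lost only without d15 replicate B (adjusted p = 0.0541). The B cell marker sums given above also differed between the groups, and their part in the Hnrnpll values was not tested.

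Other Hnrnp genes stood near the threshold at d15 or did not differ, and they were chosen after their values were seen, apart from Hnrnpk. Hnrnpu, encoding a nuclear scaffold protein, averaged 822 ± 39.2 in naive, 659 ± 43.2 at d15 and 749 ± 26.1 at d35 (d15 difference -0.32, limma adjusted p = 0.0507). Hnrnph1, a G-tract binding regulator, averaged 127 ± 18.2, 93.1 ± 3.97 and 105 ± 12.7 (d15 difference -0.43, adjusted p = 0.0714). The authors' deposited table for d15 against naive gives FDR values of 0.0134 for Hnrnpu and 0.0233 for Hnrnph1, and 0.0318 for Srsf2. Of the 52 genes, 5 were lower in the authors' deposited table at an FDR under 0.05, these 3 with Srsf5 and Hnrnpll, and 3.61% of its 10778 genes passed in either direction. Srsf7, at an FDR of 0.136 in the authors' deposited table, did not pass there. Hnrnpk, the most highly expressed Hnrnp gene in scaled CPM, averaged 841 ± 41, 822 ± 37.8 and 819 ± 16.3, with 95% intervals of the log2 difference from -0.20 to 0.14 at d15 and from -0.19 to 0.11 at d35.

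The A/B-type hnRNP genes, which bind UAG-containing RNA and often silence exons, moved little at d15, with values described after they were seen. Hnrnpa2b1 averaged 573 ± 32.6 in naive, 537 ± 23.0 at d15 and 607 ± 25.8 at d35, and Hnrnpa1 averaged 20.7 ± 1.93, 18.3 ± 3.12 and 24.4 ± 1.28. The d35 libraries lay above the d15 libraries in both genes, with adjusted p = 0.225 and 0.0875. Hnrnpab (220 ± 13.0, 225 ± 15.3 and 223 ± 4.43) and Hnrnpc (191 ± 18.8, 180 ± 9.56 and 186 ± 6.57) overlapped in all comparisons. Hnrnpl, the paralogue of Hnrnpll, averaged 163 ± 9.65, 141 ± 15.9 and 172 ± 4.74, and its d15 to d35 difference of 0.29 did not pass (limma adjusted p = 0.0738). Hnrnpd and Hnrnpdl, AU-rich element binders that lie 54.6 kb apart on chromosome 5, had d15 differences of -0.29 and -0.13, and only Hnrnpd had its d15 libraries below all naive ones. Hnrnpul1 averaged 151 ± 7.47, 126 ± 6.15 and 131 ± 10.6, below naive in every tumor-bearing library (adjusted p = 0.0950 and 0.0936).

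The Snrp genes leaned the other way. At d15, 10 of 11 had a positive difference (median 0.24), and in 7 of the 11 both d15 libraries were above all naive libraries, which 25.9% of all genes tested showed. None passed in limma at d15, with 3 of the 11 at an unadjusted p under 0.05, against 26.2% of all genes tested. By edgeR and voom 0 of the 11 passed, against 3.70% and 2.94% of all genes. By DESeq2 1 passed (Snrpd3), against 12.9% of all genes. At d35 all 11 were positive (median 0.23), and Snrpe passed. The d35 libraries lay wholly above the naive ones in 3 of the 11 Snrp genes and in 1 of the 7 Sm ring genes, against 20.7% of all genes. The 7 Sm ring genes (Snrpb, Snrpd1, Snrpd2, Snrpd3, Snrpe, Snrpf and Snrpg) were all positive at both times, with medians of 0.28 and 0.20. Most of this direction was absent after correction for transcript length: with the length correction the Sm ring medians were 0.02 at d15 and 0.02 at d35, with 6 and 4 of 7 positive. Under plain totals, quantile normalization, edgeR and DESeq2 all 7 remained positive at both times. The 11 genes summed to 402, 434 and 442 scaled CPM in naive, 480 and 481 at d15, and 445, 466 and 541 at d35.

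Snrpe encodes Sm protein E of the ring. It lies on chromosome 1 at 133603871 to 133610291, minus strand (ENSMUSG00000090553.8), and its median transcript of 550 bases is the shortest of the 52. It read 15.8, 16.8 and 18.3 in naive, 20.6 and 22.2 at d15, and 20.6, 20.7 and 25.4 at d35, so no tumor-bearing library overlapped the naive ones. The means were 17.0 ± 1.24 (SD, n = 3), 21.4 ± 1.17 (SD, n = 2) and 22.2 ± 2.76 (SD, n = 3). At d35 it rose by 0.36 on the log2 scale (SE 0.11, limma adjusted p = 0.0497), at d15 the difference of 0.32 did not pass (adjusted p = 0.140). The d35 call was lost in 14 of 19 alternatives, and with the length correction the difference was 0.02 (adjusted p = 0.896). Snrpb, encoding the Sm B protein and the most highly expressed Snrp gene, averaged 225 ± 11.4, 251 ± 1.71 and 246 ± 23.5 and did not pass (adjusted p = 0.288 and 0.306). Snrpd3, chosen after its values were seen, averaged 30.0 ± 2.25, 38.8 ± 0.375 and 34.7 ± 3.39 (d15 difference 0.36, adjusted p = 0.0726).

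The remaining Snrp genes, described with their values already seen, did not pass in limma in any comparison. The Sm genes Snrpd1, Snrpd2 and Snrpg each had both d15 libraries above all naive ones, with d15 differences of 0.28, 0.35 and 0.25. Snrpd1 averaged 25.2 ± 0.916 in naive, 30.9 ± 0.635 at d15 and 29.3 ± 4.04 at d35. Snrpf, the lowest member, averaged 1.38 ± 0.259, 1.82 ± 0.316 and 1.60 ± 0.400, and its d15 interval from -0.23 to 0.72 was too wide to place it. Among the proteins specific to U1 and U2 particles, Snrpa, a U1 particle protein, averaged 39.2 ± 2.31, 37.1 ± 2.04 and 48.9 ± 7.55. Its d35 libraries lay above all others, with adjusted p = 0.0791 against naive and 0.0879 against d15. Snrpa1, a U2 particle protein, averaged 32.8 ± 2.98, 35.1 ± 0.918 and 34.8 ± 2.7, and its groups overlapped. Snrpc (U1) and Snrpb2 (U2) had differences of 0.07 and 0.24 at d15 and of 0.24 and 0.23 at d35.

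**Figure D4:**
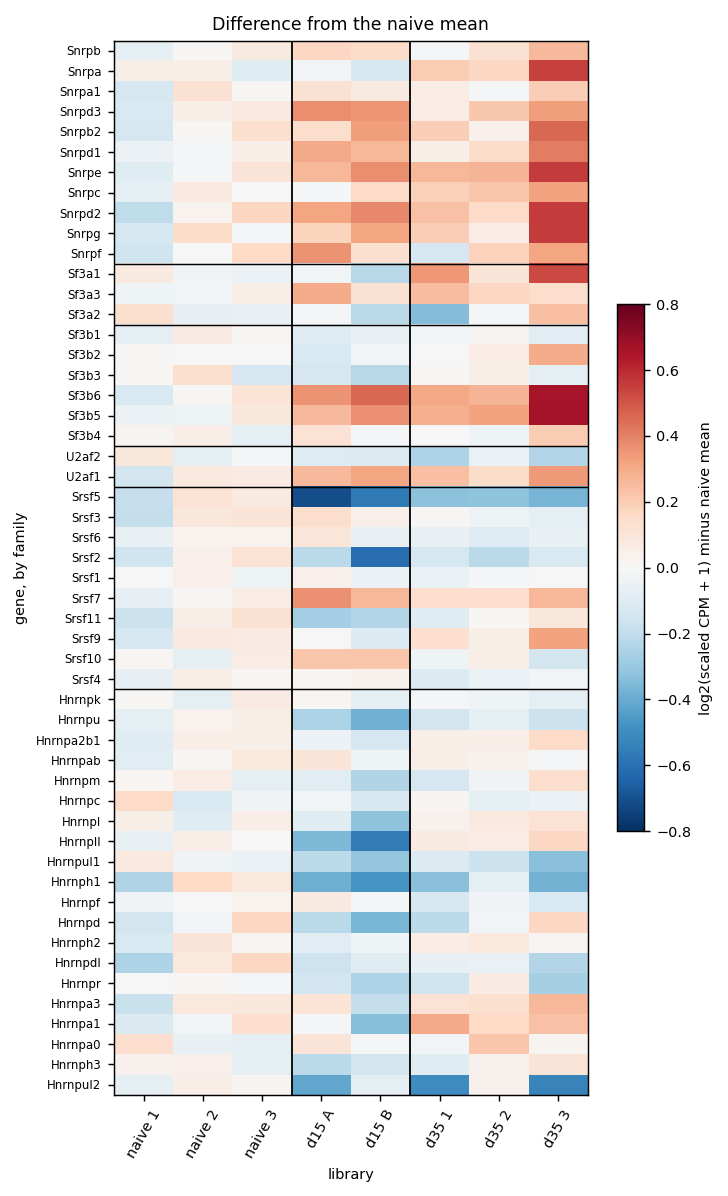
Log2 difference of each of the 52 genes in each of the 8 libraries from the naive mean, by family, in a colour scale of log2 units. The d15 column blocks are darker for Hnrnp genes on the negative side and for Snrp genes on the positive side, and d35 replicate 3 stands high among the Snrp genes (sum 541 against 445 and 466).

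In the U2 snRNP, the SF3B subunits Sf3b5 and Sf3b6 rose at d35, and 4 of the 6 Sf3b genes did not pass. Sf3b6 encodes the p14 subunit that contacts the branch point adenosine. It lies on chromosome 12 at 4817544 to 4827659, plus strand (ENSMUSG00000037361.8). It read 51.6, 56.5 and 60.8 in naive, 72.4 and 77.7 at d15, and 69.7, 68.0 and 89.4 at d35, and every tumor-bearing library was above every naive one. The means were 56.3 ± 4.61 (SD, n = 3), 75.1 ± 3.72 (SD, n = 2) and 75.7 ± 11.9 (SD, n = 3). The log2 difference was 0.41 at both times, which passed at d35 (SE 0.11, limma adjusted p = 0.0296) and not at d15 (SE 0.12, adjusted p = 0.0719).

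Sf3b5 encodes the smallest SF3B subunit, known as SF3b10, and lies on chromosome 10 at 13005343 to 13009183, plus strand (ENSMUSG00000078348.4), in 1 exon. It read 31.3, 31.5 and 34.6 in naive, 39.0 and 42.0 at d15, and 40.0, 40.9 and 52 at d35. The means were 32.5 ± 1.85 (SD, n = 3), 40.5 ± 2.16 (SD, n = 2) and 44.3 ± 6.68 (SD, n = 3). It rose by 0.43 at d35 (SE 0.11, limma adjusted p = 0.0253), while the d15 difference of 0.31 did not pass (adjusted p = 0.134). Both calls were lost without d35 replicate 3, naive replicate 1 or naive replicate 2 and under plain library totals. With the length correction Sf3b6 did not pass (0.25, adjusted p = 0.0785), while Sf3b5 still passed. The annotated lengths used were 1.18 kb for Sf3b6 and 3.841 kb for Sf3b5, whose coding sequence has only 258 bases. The corrected Sf3b5 result rests on that annotated length, and a shorter one was not tested. Sf3b1, the SF3B scaffold that is recurrently mutated in blood cancers, averaged 462 ± 22, 436 ± 9.59 and 452 ± 17.6. Its 95% interval of the log2 difference ran from -0.25 to 0.08 at d15 and from -0.18 to 0.11 at d35, well within 1.5-fold.

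The other large SF3B subunits and the small Sf3b4 also stayed below the threshold, and they are described with their values already seen. Sf3b2 averaged 188 ± 1.18, 179 ± 8.61 and 204 ± 22.8, and Sf3b3 averaged 136 ± 12.4, 119 ± 5.08 and 135 ± 5.55. In both genes the d15 libraries lay below the naive and the d35 libraries. For Sf3b3 this was a near tie, with 123.011 in d15 replicate A and 123.014 in naive replicate 3, where 1 read is worth about 0.03. Sf3b4 averaged 34.5 ± 1.66, 35.8 ± 2.33 and 36.0 ± 3.44.

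No SF3A or U2AF gene passed against naive in limma at d15 or d35. At an unadjusted limma p under 0.05 there were 1 of 3 SF3A genes at d15 and 2 at d35. Of the 2 U2AF genes, 1 was under it at each time. Of all genes tested, 26.2% were under it at d15 and 32.4% at d35. DESeq2 called Sf3a1 at d35, where it called 21.4% of all genes. Sf3a1, encoding the SF3A subunit that contacts U1 and U2 snRNP, lies on chromosome 11 at 4160350 to 4182541, plus strand (ENSMUSG00000002129.11). It read 69.2, 64.5 and 63.7 in naive, 64.6 and 56.3 at d15, and 83.8, 70.8 and 95.2 at d35. The d15 and naive libraries overlapped, and each d35 library was above both. The means were 65.8 ± 2.96 (SD, n = 3), 60.5 ± 5.89 (SD, n = 2) and 83.3 ± 12.2 (SD, n = 3). From d15 to d35 it rose by 0.45 (SE 0.12, limma adjusted p = 0.0454), lost in 12 of 18 alternatives. Against naive the d35 difference of 0.33 did not pass (adjusted p = 0.0597). The other SF3A subunits, described with their values already seen, did not pass. Sf3a2 averaged 34.9 ± 2.86, 32.3 ± 3.33 and 34.4 ± 7.10, and Sf3a3 averaged 57.7 ± 1.95, 67.1 ± 5.78 and 65.8 ± 2.68, with every tumor-bearing Sf3a3 value above the naive ones. U2af2, the large U2AF subunit that binds the polypyrimidine tract, averaged 42.5 ± 2.61, 39.3 ± 0.157 and 37.4 ± 2.96 (adjusted p = 0.517 and 0.175). Its partner U2af1, which reads the AG, averaged 22.5 ± 1.98, 27.7 ± 0.798 and 26.8 ± 1.87, with every tumor-bearing library above the naive ones (adjusted p = 0.128 and 0.118). Neither subunit passed, and their differences had opposite signs at both times.

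Differences among the 52 genes went with transcript length. Across the 52 genes the correlation of the log2 difference with log2 transcript length was -0.45 (Pearson) and -0.47 (Spearman) at d15 and -0.44 and -0.47 at d35. Across all 11199 genes with a length it was -0.37 and -0.42 at d15 and -0.28 and -0.41 at d35. These are descriptions over genes that share the same libraries. The 13 shortest genes had a median difference of 0.24 at both times (10 and 12 positive), and the 13 longest had -0.13 and -0.02 (2 and 5 positive). From d15 to d35 the correlation over the members was 0.15 and 0.13.

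**Figure D5:**
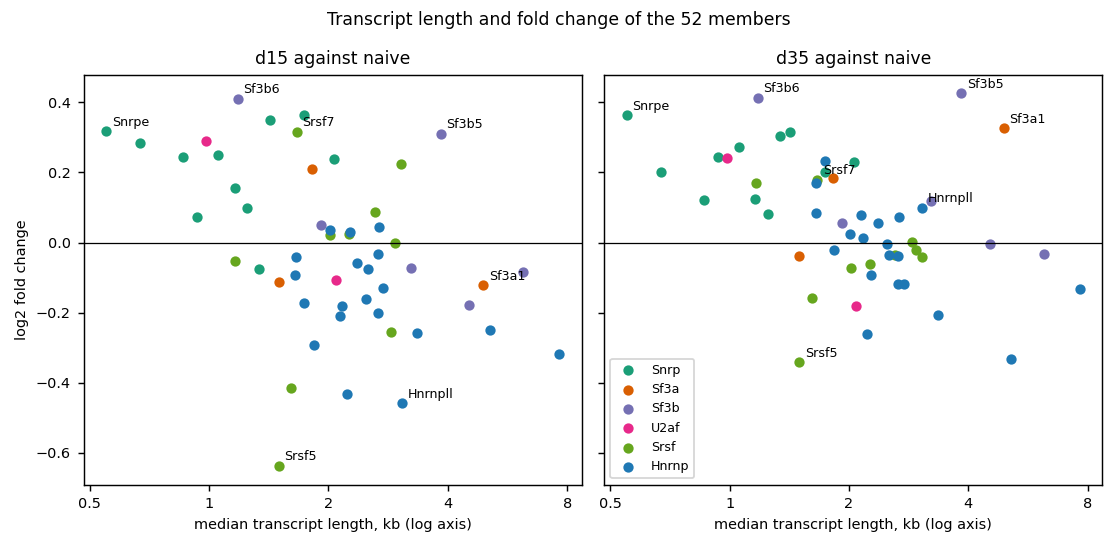
Log2 difference against median transcript length (kb, log axis) for the 52 genes at d15 and d35, coloured by family. Short genes such as the Snrp family lie high, with Pearson correlations of -0.45 and -0.44.

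Genes that work with these factors were read from a list of 124 other spliceosome and regulator genes, 122 of which were tested. At d15 2 rose and 3 fell (4.10%), at d35 5 rose and 6 fell (9.02%), and from d15 to d35 2 rose and 2 fell (3.28%), all close to or below the background shares given above. The single genes named next were chosen from the d15 calls after their values were seen. Tra2b, an SR-like activator, averaged 73.6 ± 3.21 in naive, 112 ± 4.58 at d15 and 90.0 ± 3.26 at d35 (d15 difference 0.59, limma adjusted p = 0.00521). Lsm1, of the cytoplasmic mRNA decay ring, averaged 26.3 ± 0.518, 38.3 ± 3.16 and 32.9 ± 1.91 (d15 difference 0.52, adjusted p = 0.0225). Among the genes that fell at d15 were Ewsr1, an RNA-binding protein, and Srrm2, a spliceosome scaffold. Ewsr1 averaged 286 ± 9.32, 205 ± 9.54 and 274 ± 11.2 (d15 difference -0.48, adjusted p = 0.00852). Srrm2 averaged 181 ± 28.4, 114 ± 18.3 and 140 ± 9.82 (d15 difference -0.66, adjusted p = 0.0267). Ewsr1 also rose from d15 to d35, by 0.41 (adjusted p = 0.0078). All 8 SR protein kinases had d15 and d35 intervals within 1.5-fold, with differences from -0.12 to 0.08 at d15 and from -0.13 to 0.18 at d35.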

How the data were processed

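RNA-seq (SMART-Seq v4, NextSeq 550, per the labels' protocols) was aligned with STAR 2.5 to mm10 and normalized with edgeR, per the submitters' processing notes. For the counter, annotation and strand setting: not given in the sources used here. The deposited values are a normalized signal (scaled CPM). The reads recovered from them were whole for 100% of values (tolerance 0.001), and the fewest reads of a gene over all libraries was 41. The authors' deposited d15 table holds log2 fold changes, p-values and scores. For this work the values were tested on log2(value + 1) with limma 3.58.1 (trend, all 8 libraries, genes reaching 1 in 2 or more libraries, 5 residual degrees of freedom plus 5.72 from the prior), with Benjamini-Hochberg adjustment and a threshold of 0.05. The script was tested on simulated data. Alternatives were edgeR 4.0.16 and DESeq2 1.42.0 on recovered reads, voom, another pseudocount and filters, scalings, a length correction (GENCODE M21, GRCm38), 2-group fits and leaving out each library. Across all genes edgeR on the recovered reads called 215 up and 202 down at d15, 1084 up and 676 down at d35, and 526 up and 301 down from d15 to d35. Named members are those called in a comparison and the highest of each family, and the text says where a member was chosen later. Hspa8, Tra2b, Lsm1, Ewsr1 and Srrm2, from the other lists, lie outside this rule and were chosen after their values were seen. Members and lists were chosen with earlier results of these data known. Same-numbered naive and d35 libraries correlated at -0.00708, -0.0456 and 0.147 in their deviations, and differently numbered ones at -0.09995 to 0.103. With 3 libraries a group these values cannot show whether the numbers pair them, and the labels do not say.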

Additional observations from a re-analysis of the deposited data

Results flagged for a closer look

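The difference between d35 and d15 was itself tested, and it passed in 2 of the 52 genes (3.85%, against 7.39% of all genes tested). Hnrnpll was higher at d35 than at d15 by 0.56 on the log2 scale (limma adjusted p = 0.00279), and Sf3a1 by 0.45 (adjusted p = 0.0454). The Hnrnpll difference passed in every alternative except the one without d15 replicate B. The Sf3a1 difference did not pass in 12 of 18 alternatives.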

How the results depend on the processing

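For d15 against naive, 3 genes were called, 9 with DESeq2 (17.3%, against 12.9% of all genes by DESeq2) and 6 with only the 2 groups fitted (10.5% of all genes). For d35 against naive 4 were called. For d35 against d15 2 were called, and 7 with DESeq2 (13.5%, against 12.1% of all genes). Only the 2 groups, quantile normalization and voom called 1 each (3.73%, 6.70% and 5.93% of all genes). Leaving out 1 library gave 0 to 6, 0 to 8 and 0 to 2 calls. The shares of all genes called in those fits are not given here, so these counts have no background beside them. The counts fell to 0 without d15 replicate B (d15 against naive, and d35 against d15) and without d35 replicate 3 or naive replicate 2 (d35 against naive), and were highest without d35 replicate 3 (6) and d35 replicate 2 (8). The cause was not tested. The median over the 52 genes moved under plain library totals, to -0.11 at d15 and -0.06 at d35, in both cases with the median of all genes lower too. No called gene named in the text changed sign under the alternatives run. With the replicate block of naive and d35 libraries, 3 genes were called (2 up, 1 down), with no share of all genes given here. Snrpe did not pass in that fit (0.36, limma adjusted p = 0.0628). Whether the shared numbers mark paired libraries is not labelled. With values near 1 to 2 scaled CPM, Snrpf did not enter the filter at 5.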
